A study of Saccharomyces cerevisiae with 12 samples.

Results

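The comparison described here is that of yeast cells consuming xylose with yeast cells consuming glucose, both without an inhibitor. Its members are the 3 xylose control arrays and the 3 glucose control arrays, chosen by their labels from the 12 arrays of the series, and every probe set of the array that is paired with 1 named gene. There were 5489 such probe sets of 5705, standing for 5444 genes. All arrays hold RNA of 1 strain, Saccharomyces cerevisiae VTT C-10883, a haploid MAT alpha laboratory strain with MAL2-8c and SUC2 alleles, made able to use xylose by the xylose reductase and xylitol dehydrogenase genes of Scheffersomyces stipitis (XYL1 and XYL2), an additional copy of its own xylulokinase gene XKS1 and a restored URA3. The cells were grown anaerobically in nitrogen-sparged batch bioreactors on a mixture of glucose and xylose, with ergosterol and Tween 80 supplied. The glucose control was taken while glucose was being consumed, and the xylose control in the same kind of culture after glucose had run out, when xylose was being consumed and the cells no longer grew. The other 6 arrays are the glucose pulse and the xylose pulse, which received 3.9 g/L HMF (5-hydroxymethylfurfural) and 1.2 g/L furfural, aldehydes formed when plant biomass is hydrolysed. The sugar, growth, time in the batch and the ethanol already formed all differ between the phases, and their parts in the values below cannot be told apart. The 3 replicates of a group are described as biological, whereas the labels do not say whether a control and a pulse of 1 number share a culture.

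Glucose represses the genes for the use of other carbon sources in this yeast. At high glucose, the repressors Mig1 and Mig2 and the hexokinase Hxk2 keep genes for respiration, gluconeogenesis and other sugars off, while protein kinase A and TOR signalling keep ribosome synthesis on and the general stress response off. When glucose is gone, the kinase Snf1 and the activators Cat8, Sip4, Adr1 and the Hap complex turn the repressed genes on, and cells that stop growing shut down ribosome synthesis and store trehalose and glycogen. Xylose enters through hexose transporters and, after reduction to xylitol, oxidation to xylulose and phosphorylation, joins metabolism in the pentose phosphate pathway.

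The phases differed over most of the transcriptome. A probe set was called higher or lower in the xylose control at a Benjamini-Hochberg adjusted p under 0.01 in limma and a log2 difference (xylose control mean minus glucose control mean) above 1 or below -1. By this rule 1524 of 5489 probe sets (27.8%) were higher and 1491 (27.2%) were lower, 54.9% in all. These percentages are the background against which each gene group below is to be read. The adjusted p alone was passed by 4473 probe sets (81.5%), of which 1458 differed by less than 2-fold, and the 3 xylose control arrays lay wholly above or below the 3 glucose control arrays for 4865 (88.6%), above for 46.1% and below for 42.6%. The log2 difference exceeded 3, which is 8-fold, for 374 higher and 411 lower probe sets, and its median over all probe sets was 0.09 with quartiles at -1.13 and 1.15. Arrays of 1 group correlated at 0.992 to 0.998 over probe sets, and a glucose control array with a xylose control array at 0.637 to 0.651. The median SD over 3 arrays was 0.12 in the glucose control and 0.10 in the xylose control. Values are log2 expression after quantile normalization, which brings the arrays close to 1 distribution (array medians 9.683 to 9.741), so a change in total mRNA per cell would not be visible.

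**Figure D1:**
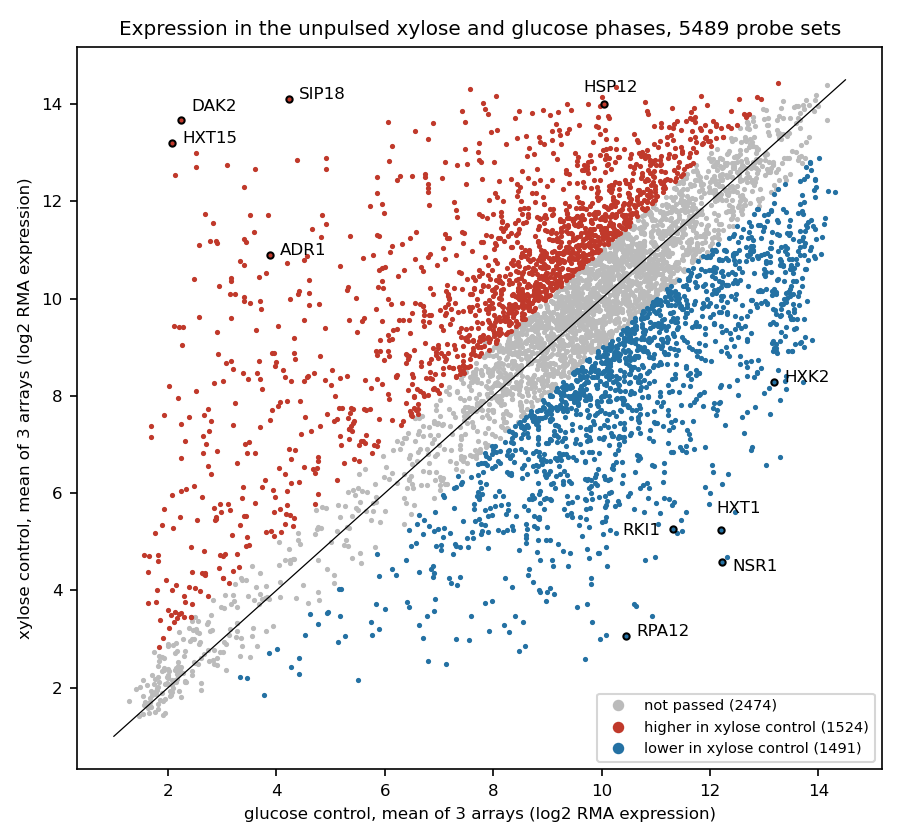
Mean log2 expression in the 3 xylose control arrays (y axis) against that in the 3 glucose control arrays (x axis) for each probe set, with 1524 called higher in red, 1491 called lower in blue and the line of equal level in black. Circles mark genes named in the text, such as HXT15 at 2.08 in glucose and 13.20 in xylose and RPA12 at 10.45 in glucose and 3.07 in xylose.

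The 10 largest differences upwards belonged to genes that were close to the lowest values of the arrays in the glucose phase. They were DAK2 (a dihydroxyacetone kinase), HXT15 (a hexose transporter), SPG4 and SPG1 (genes of the stationary phase), RGI2 (a gene of respiratory growth), SIP18 (a hydrophilin of desiccation tolerance), SHH3 (a relative of a succinate dehydrogenase subunit), ISF1, YIG1 and ATO2 (a putative ammonium exporter). DAK2 stood at 2.41, 2.08 and 2.23 in the 3 glucose control arrays and at 13.74, 13.67 and 13.64 in the 3 xylose control arrays, a log2 difference of 11.44 ± 0.11 (SE, adjusted p = 3.3e-16). The values of RGI2 were 2.17, 2.08 and 2.11 in glucose and 12.52, 12.58 and 12.52 in xylose (10.42 ± 0.08, adjusted p = 3.3e-17). Neither gene had a value in xylose anywhere near its values in glucose. All 10 had a glucose mean below 4.30, the highest of the 5th percentiles of the 6 control arrays, as did 197 (12.9%) of the 1524 higher probe sets, and with detection calls not used the sizes of such differences are not exact.

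The 10 largest differences downwards were in NSR1, NOP56, UTP8 and UTP13 (ribosome assembly in the nucleolus), RPA12 and RPA43 (subunits of RNA polymerase I), URA7 (CTP synthase), MKC7 (a cell surface protease), SFG1 (a putative transcription factor) and HXT1 (the low-affinity glucose transporter). NSR1, the yeast nucleolin, measured 12.20, 12.20 and 12.26 in glucose and 4.40, 4.81 and 4.51 in xylose (-7.64 ± 0.14, adjusted p = 4.1e-14). RPA12 measured 10.49, 10.37 and 10.49 in glucose against 2.80, 3.05 and 3.35 in xylose (-7.38 ± 0.12, adjusted p = 1.2e-14). These were well-expressed genes in the glucose phase that came down to the dim end of the arrays in xylose. The mean in xylose was below 4.30 for 7 of the 10 and for 71 (4.76%) of all 1491 lower probe sets.

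Hexose transporters, through which xylose also enters, were called in both directions. Of 14 measured, 9 were higher and 3 lower in xylose, with a median log2 difference of 2.29. This median was -3.95 with the dimmest probe sets of the table left out. That filter went by the mean over the control arrays, so it can drop transporters that were dim in glucose and higher in xylose. The 3 lower genes were those of growth at high or intermediate glucose. HXT1 was at 11.97, 12.53 and 12.11 in glucose and 5.23, 5.49 and 4.98 in xylose (-6.97 ± 0.20, adjusted p = 1.4e-12), HXT4 fell by 4.86 and HXT3 by 3.04. No xylose control array came near a glucose control array in any of the 3.

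In the opposite direction, HXT7, a high-affinity transporter, went from 9.23, 8.75 and 8.75 in glucose to 13.75, 13.94 and 13.93 in xylose (4.96 ± 0.21, adjusted p = 6.7e-11). HXT5, a transporter of slow-growing cells, had 2.99, 2.76 and 3.02 in glucose and 8.39, 9.18 and 9.05 in xylose (5.95 ± 0.17, adjusted p = 1.5e-12). HXT15 moved furthest, from 2.16, 2.18 and 1.88 to 13.27, 13.17 and 13.17 (11.13 ± 0.15, adjusted p = 2.2e-15). HXT13, HXT14 and HXT17 were higher by 5.20, 3.74 and 3.82, all from glucose means between 1.93 and 2.23 (HXT13 and HXT17 were named after their values had been seen). HXT7, HXT15 and HXT17 were read by probe sets that the array design marks as shared between similar transcripts, so HXT6 and HXT16, which had no probe set of their own here, may contribute. HXT1, HXT4 and HXT5 lie within a few genes of each other on 1 arm of chromosome VIII, and HXT5 was called opposite to the other two. HXT2 (3.82 ± 0.21 in glucose and 3.87 ± 0.09 in xylose, SD, n = 3) and HXT10 (0.62) were not called.

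**Figure D2:**
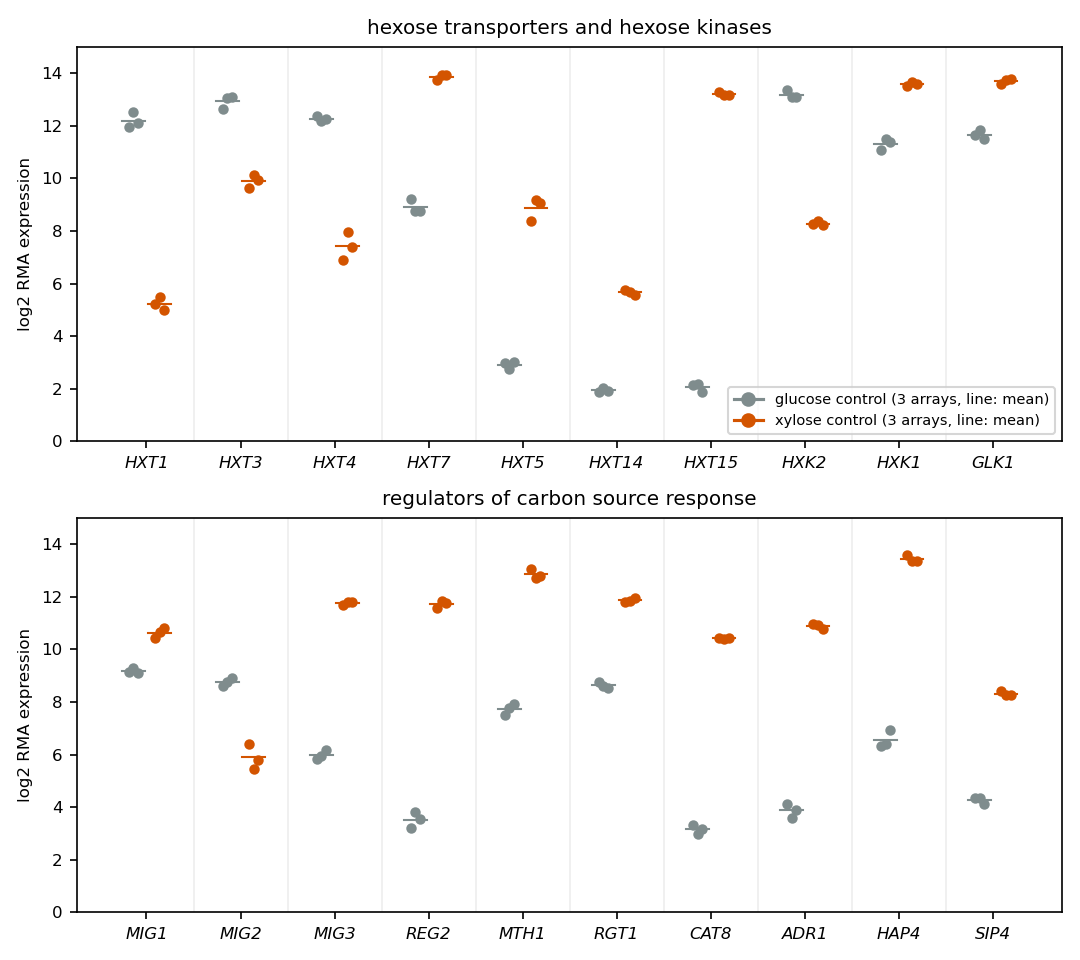
Log2 expression (y axis) in each of the 3 glucose control arrays (grey) and the 3 xylose control arrays (orange), with a line at the mean, for hexose transporters and hexose kinases (top) and regulators of the carbon source response (bottom). In no gene shown do the arrays of the groups overlap, with HXT1, HXT3, HXT4, HXK2 and MIG2 lower and the others higher in xylose.

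The sensing and repression machinery was not shifted as a whole, with 7 of 21 members higher, 3 lower and a median of 0.67. MTH1, a corepressor of the HXT genes that glucose sensing removes, was at 7.50, 7.79 and 7.93 in glucose and at 13.06, 12.72 and 12.81 in xylose (5.12 ± 0.14, adjusted p = 1.0e-12). RGT1, the repressor it works with, was higher by 3.23, and STD1, a paralogue of MTH1, was lower (-1.66). The casein kinase gene YCK2 was lower as well (-1.51). The high-affinity sensor SNF3 was higher by 2.79, whereas RGT2, the sensor of high glucose (0.77), was not called. Among the Mig repressors MIG2 fell from 8.62, 8.76 and 8.90 to 6.42, 5.46 and 5.81 (-2.87 ± 0.19, adjusted p = 7.3e-09), MIG3 rose by 5.78 and MIG1 by 1.46. REG2, a targeting subunit of the phosphatase Glc7, rose by 8.21 from means of 3.52 ± 0.30 to 11.73 ± 0.15 (SD, n = 3), while REG1 (0.95) and GLC7 (0.67) were not called. SIP2, a beta subunit of the Snf1 kinase, rose by 4.68, and the kinase SNF1 (0.09), its gamma subunit SNF4 (-0.18) and the upstream kinases SAK1 (-0.70), TOS3 (-0.10) and ELM1 (0.08) were not called.

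Of 14 transcription factors tied to derepression, 12 were higher and 0 lower, with a median of 2.17. The 12 include NRG1 (1.52) and NRG2 (1.73), which encode repressors of glucose-repressed genes. CAT8, which turns on gluconeogenic genes, had 3.33, 2.99 and 3.18 in glucose and 10.44, 10.40 and 10.42 in xylose (7.25 ± 0.12, adjusted p = 1.2e-14). ADR1, the activator of peroxisomal and ethanol-use genes, had 4.14, 3.59 and 3.91 in glucose and 10.97, 10.94 and 10.79 in xylose (7.02 ± 0.13, adjusted p = 4.1e-14). HAP4, the regulated subunit of the Hap complex that drives respiratory genes, had 6.32, 6.41 and 6.95 in glucose and 13.60, 13.37 and 13.38 in xylose (6.89 ± 0.19, adjusted p = 1.0e-12). For each of these 3 regulators the xylose arrays lay close together and far above the glucose arrays. SIP4 (4.03), RDS2 (2.56) and USV1 (6.78) were higher too, as were the Hap subunits HAP2, HAP3 and HAP5 by 1.96, 1.07 and 2.38. HAP1 (0.58) and PIP2 (0.99) were not called.

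Of 14 genes of Ras and protein kinase A signalling, 6 were higher and 2 lower. RAS1 fell by 3.34 and RAS2 (0.14) was not called. The catalytic subunits moved apart, with TPK2 higher by 2.07 and TPK3 lower, at -1.91. BCY1, the inhibitory subunit, was higher by 1.76 and PDE1, a cyclic AMP phosphodiesterase, by 3.38. Of 13 stress and quiescence factors 7 were higher and 0 lower, among them MSN4 (2.72), GIS1 (2.87), XBP1 (4.94) and CIN5 (4.06). MSN2 (0.39) was not called.

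Genes for disaccharides, the textbook targets of glucose repression, were higher in 9 of 10 cases with a median of 3.69. They included the maltose permease gene MAL31 (5.32), the maltase gene MAL32 (4.14), the isomaltase gene IMA1 (4.63) and, named after its value had been seen, the invertase gene SUC2 (1.51). Neither sugar of the medium is a substrate of these enzymes.

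In the route of xylose itself, transcripts of xylulokinase and of the main genes of the non-oxidative pentose phosphate pathway were lower in the xylose phase. Of 20 genes of this route, 8 were higher and 9 lower. XKS1, which the strain carries in an additional copy, had 13.88, 13.72 and 13.74 in glucose and 11.57, 11.54 and 11.43 in xylose (-2.27 ± 0.10, adjusted p = 1.3e-10). RKI1, ribose-5-phosphate isomerase, had 11.32, 11.26 and 11.36 in glucose and 5.28, 5.14 and 5.38 in xylose (-6.05 ± 0.12, adjusted p = 5.8e-14). Transketolase TKL1 had 13.82, 13.71 and 13.65 in glucose and 11.10, 11.24 and 10.93 in xylose (-2.64 ± 0.09, adjusted p = 9.9e-12). The groups of arrays were apart in all 3. Transaldolase TAL1 (-1.51) and the epimerase RPE1 (-1.27) were lower as well. Thus the main gene of each of the 5 enzymes that carry xylulose into glycolysis had a lower transcript level while xylose was the carbon source. The arrays do not measure the amounts of these enzymes.

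The second copies of these enzymes went the other way. TKL2 had 3.33, 3.40 and 3.27 in glucose and 10.61, 10.92 and 10.81 in xylose (7.45 ± 0.15, adjusted p = 6.5e-14). NQM1, the second transaldolase, was higher by 6.50. In the oxidative part, GND2 (6-phosphogluconate dehydrogenase) was higher by 6.02 and SOL4 (6-phosphogluconolactonase) by 6.45, against GND1 at -1.50 and SOL3 at -2.55. ZWF1, glucose-6-phosphate dehydrogenase, was higher by 1.07. The yeast's own genes for aldose reductase GRE3 (1.34), xylitol dehydrogenase XYL2 (3.21) and sorbitol dehydrogenase SOR2 (4.08) were higher, SOR2 from 10.15, 10.29 and 10.35 to 14.17, 14.44 and 14.43. Its probe set is shared with the near-identical SOR1. XKS1, RPE1, ZWF1, GRE3 and XYL2 were named for their place in the route after their values had been seen. Transcripts of the S. stipitis genes were not analysed here, and URA3, restored in the strain, was not called (-0.35 ± 0.10).

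Glycolytic genes were lower in 11 of 21 cases and higher in 4, with a median of -1.04. The largest change was at the first step. HXK2, the hexokinase of growth on glucose and a part of Mig1 repression, measured 13.35, 13.09 and 13.10 in glucose and 8.26, 8.37 and 8.22 in xylose (-4.90 ± 0.09, adjusted p = 3.6e-14). HXK1 measured 11.10, 11.50 and 11.38 in glucose and 13.51, 13.67 and 13.61 in xylose (2.27 ± 0.14, adjusted p = 2.1e-09), and the glucokinase gene GLK1 was higher by 2.04. HXK2 was thus lower and HXK1 and GLK1 higher, while EMI2 (0.60), a gene of like role to GLK1, was not called. Of later steps, PGI1 (-1.96), PFK2 (-1.97), ENO1 (-1.96) and ENO2 (-2.10) were lower, and FBA1 (-0.54), TDH1 (-0.48) and TDH3 (-0.44) were not called. The pyruvate kinase gene CDC19 was lower at -1.04, so close to the threshold that the call was lost in several alternatives, and its minor copy PYK2 was higher by 2.20.

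In the ethanol branch, pyruvate decarboxylase genes PDC1 (-2.27) and PDC5 (-1.92) were lower and PDC6 (1.46) was higher. The main fermentative alcohol dehydrogenase gene ADH1 read 13.22, 14.01 and 14.12 in glucose and 13.11, 13.33 and 13.25 in xylose, with overlapping arrays and no call (-0.55 ± 0.21, adjusted p = 0.0249). ADH2, the ethanol-oxidizing enzyme that is a classical derepressed gene, was at 5.24 ± 0.41 in glucose and 4.94 ± 0.28 in xylose (SD, n = 3) and was not called (-0.30 ± 0.19, adjusted p = 0.146). Its activator ADR1 was higher, as given above. The butanediol dehydrogenase genes BDH1 (2.61) and BDH2 (6.53) were higher. All 6 aldehyde dehydrogenase genes were called, with ALD2 (4.49), ALD3 (4.24), ALD4 (2.82) and HFD1 (2.80) higher and the cytosolic ALD6 (-1.77) and mitochondrial ALD5 (-2.47) lower.

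Glycerol formation and glycerol use moved in opposite directions. The glycerol 3-phosphatase genes GPP1 (-4.54) and GPP2 (-2.48) and the anaerobic glycerol 3-phosphate dehydrogenase gene GPD2 (-1.41) were lower, and GPD1 (-0.46) was not called. The glycerol kinase gene GUT1 (2.15) and the mitochondrial dehydrogenase gene GUT2 (4.84) were higher. GPP1 was at 13.57, 13.83 and 13.84 in glucose and 8.83, 9.61 and 9.19 in xylose. YIG1, whose product binds the glycerol 3-phosphatase, was among the 10 largest increases at 9.05.

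Of 26 genes of gluconeogenesis, the glyoxylate cycle and acetate use, 16 were higher and 3 lower, with a median of 2.43. MLS1, malate synthase of the glyoxylate cycle, had 3.41, 3.50 and 3.32 in glucose and 9.91, 10.03 and 9.93 in xylose (6.54 ± 0.11, adjusted p = 1.7e-14). JEN1, a lactate and pyruvate permease, was higher by 6.46, the carnitine carrier gene CRC1 by 7.32, the carnitine acetyltransferase gene CAT2 by 5.41 and the acetyl-CoA synthetase gene ACS1 by 4.09. The gluconeogenic gene PCK1 (phosphoenolpyruvate carboxykinase), named after its value had been seen, was higher by 2.49. The glyoxylate cycle was not raised at each step. Isocitrate lyase ICL1, also named after its values had been seen, was at 6.55 ± 0.18 in glucose and 7.08 ± 0.08 in xylose (SD, n = 3; 0.53 ± 0.12, under the fold threshold), and CIT2, the peroxisomal citrate synthase gene (0.63), was not called. Against the group, DAL7 (the malate synthase of allantoin use, -3.65), the malic enzyme gene MAE1 (-2.39) and ATO3 (-1.91) were lower.

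Although the cultures were anaerobic, transcripts of the respiratory chain and the ATP synthase were higher in 40 of 42 cases with 0 lower, and their median was 2.91. All 4 subunits of succinate dehydrogenase were higher (1.94 to 3.41), all 9 of the cytochrome bc1 complex (2.55 to 5.44), all 9 measured of cytochrome c oxidase (2.03 to 5.68) and all 13 measured of the ATP synthase (1.25 to 2.93). The NADH dehydrogenases, which feed the chain in place of complex I, were higher by 3.89 for NDI1, 5.91 for NDE1 and 6.89 for NDE2. NDE2 was at 4.76, 4.91 and 4.86 in glucose and 11.66, 11.79 and 11.76 in xylose. INH1, the inhibitor that stops the ATP synthase from running backwards, had 5.94, 6.30 and 6.17 in glucose and 13.16, 13.12 and 13.11 in xylose (6.99 ± 0.10, adjusted p = 3.5e-15). The groups did not overlap for either gene. NDI1 and the split into complexes were chosen after the values had been seen.

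Oxygen-regulated partners within this machinery followed no single pattern. The cytochrome c gene of low oxygen, CYC7, had 7.98, 7.86 and 8.34 in glucose and 14.12, 14.17 and 14.19 in xylose (6.10 ± 0.12, adjusted p = 4.2e-14). The aerobic CYC1 was variable, with 7.16, 7.64 and 8.71 in glucose and 8.80, 9.38 and 9.15 in xylose, and was not called (1.27 ± 0.49, adjusted p = 0.0278). For subunit V of cytochrome c oxidase, the aerobic COX5A was higher by 5.59 and the hypoxic COX5B by 2.03. The ADP/ATP carrier gene of anaerobic cells, AAC3, had 11.62, 12.19 and 11.88 in glucose and 5.99, 6.17 and 6.18 in xylose (-5.78 ± 0.18, adjusted p = 2.2e-12), and the carrier of aerobic cells, PET9, was higher by 1.83. ANB1, the hypoxic form of translation factor eIF5A, was lower at -3.72, and its aerobic partner HYP2 (-0.57) was not called.

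Other mitochondrial genes rose less evenly. In the tricarboxylic acid cycle 12 of 24 genes were higher and 0 lower (median 0.81). The pyruvate carrier subunit gene MPC3 rose by 6.61, KGD1 (2-oxoglutarate dehydrogenase) by 2.33 and CIT1 (citrate synthase) by 2.11. None of the 5 measured subunits of pyruvate dehydrogenase was called (-0.63 to 0.42). Mitochondrial ribosomal proteins were higher in 54 of 68 cases with 0 lower, and a median of 1.42. Import and folding genes were higher in 5 of 20 cases, a share near the background.

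Genes of beta-oxidation, which yeast carries out in peroxisomes, and of the peroxisome itself were together higher in 26 of 36 cases and lower in 1, with a median of 1.74. POT1, the thiolase, had 2.53, 2.50 and 2.41 in glucose and 10.13, 10.55 and 10.54 in xylose (7.93 ± 0.12, adjusted p = 8.7e-15). The acyl-CoA oxidase gene POX1 rose by 5.27, the dienoyl-CoA reductase gene SPS19 by 7.99 and the peroxisomal catalase gene CTA1 by 6.87. Among the 19 peroxins, which build the organelle, 11 were higher, PEX18 most (7.04), and PEX25 was lower (-1.22). The dividing factor PEX11 (0.32) was not called.

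Reserve carbohydrate genes were higher as well, 11 of 14 of glycogen metabolism (median 3.89) and 6 of 7 of trehalose metabolism (median 2.14). GAC1, which directs the phosphatase Glc7 to glycogen synthase, had 2.75, 2.50 and 2.49 in glucose and 10.93, 11.16 and 11.25 in xylose (8.54 ± 0.11, adjusted p = 1.9e-15). Genes of both synthesis and breakdown were among them, GSY2 (glycogen synthase, 4.29) with GPH1 (phosphorylase, 4.09), and TSL1 (trehalose synthase complex, 2.87) with NTH1 and ATH1 (trehalases, 2.14 and 3.21). The phosphoglucomutase genes split, PGM2 being higher by 3.84 and PGM1 lower at -4.92.

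All 30 measured effectors of the environmental stress response were higher in xylose, with a median of 4.90 and a range of 1.47 to 9.88, beside 27.8% of all probe sets. SIP18 had 4.17, 4.11 and 4.39 in glucose and 14.15, 14.09 and 14.09 in xylose. The cell wall protein gene SPI1 was higher by 5.38, the glutamate decarboxylase gene GAD1 by 5.30 and the glutathione peroxidase gene GPX1 by 6.24. Of 21 stationary-phase genes 20 were higher with a median of 4.68, GTO3 (0.61) being the member not called. Like the other groups, this one was chosen with earlier results of these data known, so its count is a description only. Several genes, such as SIP18, CYC7, MPC3 and SSA3, stand in more than 1 of these groups. Heat-shock proteins were divided, with 14 of 27 higher and 3 lower. HSP30 (6.21), HSP12 (3.95), SSE2 (3.88) and SSA3 (4.74) were higher, HSC82 (-0.06), SSA1 (0.51) and SSE1 (0.14) were not called, and the 3 lower were SSA2 (-3.15) and the ribosome-bound SSB1 (-3.32) and SSB2 (-4.24).

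**Figure D3:**
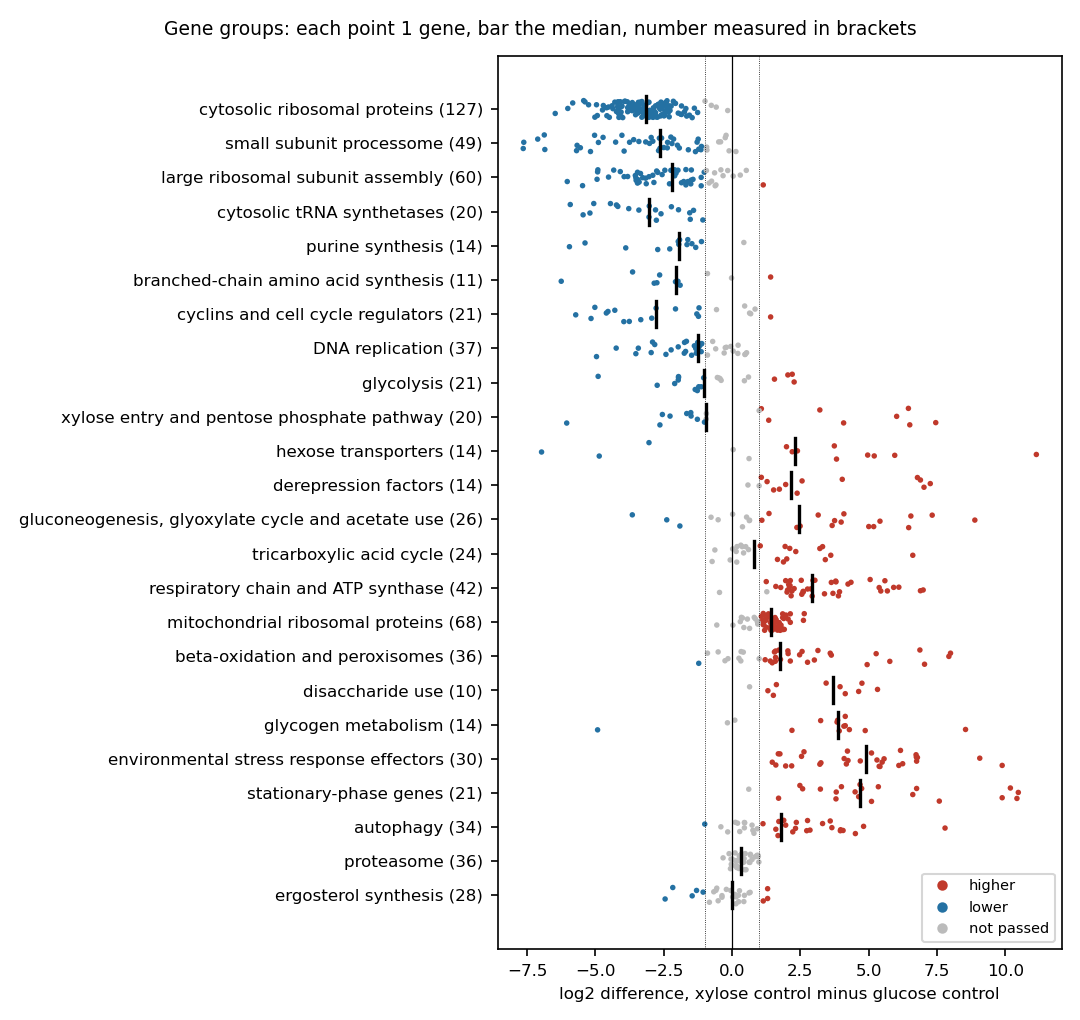
Log2 difference (x axis, xylose control minus glucose control) of each measured gene in 24 of the 60 gene groups (y axis), coloured red where called higher, blue where called lower and grey otherwise, with a bar at the median and dotted lines at -1 and 1. Ribosomal proteins lie at the low end (median -3.16) and stress response effectors at the high end (median 4.90), and all 36 proteasome genes lie between the dotted lines.

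Genes of cytosolic protein synthesis were mostly lower. Of 127 cytosolic ribosomal protein genes 123 were lower (96.9%, beside 27.2% of all probe sets) and 0 higher, and their median was -3.16. RPL13A had 12.95, 13.04 and 13.13 in glucose and 6.66, 6.60 and 6.46 in xylose (-6.47 ± 0.09, adjusted p = 3.5e-15). RPS30A (-0.16), RPS23A (-0.76), RPS27A (-0.99) and, named after its value had been seen, RPL15B (-0.58) were not called, although a second, dimmer probe set of RPS23A was lower (-1.87). Many of these genes exist as near-identical pairs, and how the array divides the signal between copies is uncertain. All 20 cytosolic tRNA synthetase genes were lower (median -3.04), SES1 (the seryl enzyme) from 12.24, 12.40 and 12.35 to 6.30, 6.38 and 6.53. Of 35 translation factors 21 were lower and 1 higher. The exception, HEF3, a second form of elongation factor 3, rose from 7.16, 7.69 and 7.72 to 12.86, 12.69 and 12.73 (5.24 ± 0.17, adjusted p = 4.1e-12).

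Ribosome assembly was lower in 41 of 49 genes of the small subunit processome (median -2.64) and 47 of 60 of large subunit assembly (median -2.18), where NOP16 alone was higher (1.14). NOP1 (-6.85), the fibrillarin, and NOP56 (-7.62) belong to the same box C/D particle. The processome members BMS1 (-0.42) and SAS10 (0.14) were not called. Of 35 genes of RNA polymerases I and III 19 were lower and 1, RRN10 (1.20), higher. In RNA polymerase I, 6 of 7 measured subunits were lower and RPA14 (-0.79) was not called.

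Precursor synthesis went down alongside. Purine synthesis was lower in 13 of 14 genes (median -1.93), IMD3 and IMD4, which make GMP precursors, by the most (-5.38 and -5.95), and ADE16 (0.43) was not called. Of 9 pyrimidine genes 6 were lower and 2 higher, and the 2 were second copies. URA7 fell from 10.93 ± 0.13 to 3.48 ± 0.40 (SD, n = 3; log2 difference -7.45 ± 0.18, adjusted p = 3.1e-13), while the other CTP synthase gene, URA8, was higher by 1.65. Likewise URA5 was lower (-2.99) and its copy URA10 higher (4.80).

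Amino acid synthesis was lower in all 7 histidine genes (median -1.84), 10 of 12 aromatic (-2.27), 8 of 11 branched-chain (-2.07), 6 of 8 lysine (-2.05), 4 of 7 arginine (-1.50) and 11 of 25 sulfur and methionine genes (-0.56). LEU9 (-6.25), ARO4 (-5.87), HIS7 (-5.52) and LYS9 (-5.50) fell furthest in their groups. LEU4, the main leucine gene beside LEU9, was not called (-0.02). The one called higher in branched-chain synthesis was BAT2 (1.41), the cytosolic aminotransferase, against the mitochondrial BAT1 (-3.64).

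Nitrogen use was mixed, with 12 of 28 genes higher and 7 lower. The glutamate dehydrogenase genes GDH1 and GDH3 were called in opposite directions. GDH1 had 13.18, 13.54 and 13.50 in glucose and 8.01, 8.62 and 8.61 in xylose (-4.99 ± 0.17, adjusted p = 6.3e-12), and GDH3 had 5.62, 6.16 and 5.79 in glucose and 11.28, 11.34 and 11.31 in xylose (5.46 ± 0.13, adjusted p = 2.9e-13). Proline oxidase PUT1 was higher by 5.10 and the 4-aminobutyrate permease gene UGA4 by 3.94, and the ammonium permease gene MEP2 was lower (-2.63). Of 18 amino acid permeases 7 were higher, such as ALP1 (5.76) and AGP2 (5.39), and 5 lower, such as CAN1 (-2.88).

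Cell cycle genes were mostly lower, in the phase whose cells did not grow. Of 21 cyclins and regulators 15 were lower (median -2.78), and 1, the cyclin-dependent kinase inhibitor SIC1, was higher (1.41). The G1 cyclin CLN1 had 9.01, 8.99 and 8.98 in glucose and 3.87, 4.16 and 3.88 in xylose (-5.02 ± 0.12, adjusted p = 2.9e-13). PCL1 (-5.16), CLB1 (-4.60) and CLB2 (-4.29) were lower. DNA replication genes were lower in 24 of 37 cases and higher in 0, with the ribonucleotide reductase gene RNR1 going from 11.61, 12.10 and 11.98 to 6.76, 7.11 and 6.94. Of 9 histone genes only HTB2 was called (-2.59) by the brightest probe set of each, and a dimmer probe set of HTA2 was lower as well (-2.05). The group's median was 0.03 and changed sign in 1 alternative, to -0.04. Of 12 genes of daughter cell separation 8 were lower.

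Turnover genes divided by system. Autophagy genes were higher in 21 of 34 cases (median 1.80), ATG39, a receptor for autophagy of the nuclear envelope, from 3.65, 3.56 and 3.53 to 11.51, 11.28 and 11.30 (7.79 ± 0.12, adjusted p = 9.4e-15). The vacuolar protease gene PRB1 (2.22) and the inhibitor genes PAI3 (5.49) and PBI2 (1.67) were higher, and PEP4 (0.81) was not called. No proteasome gene was called (0 of 36, with a range of -0.33 to 0.98 and a median of 0.34).

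Genes expressed in anaerobic cells were called about as often as all probe sets. In the group of 23, 5 were higher and 7 lower, with a median of -0.06 that was 0.01 to 0.05 in 4 alternatives. The mannoproteins of anaerobic cells DAN1 and TIR1 to TIR4, set apart after their values had been seen, all had means of 11.89 or more in both phases and were not called (-0.62 to 0.39), while the related DAN4 was lower (-1.78), going from 11.22 to 9.44. The fumarate reductase gene FRD1 was lower too (-2.29). TIR1 was at 13.55 ± 0.62 in glucose and 13.94 ± 0.22 in xylose (SD, n = 3). Of 13 measured seripauperins, the PAU family, 10 were higher in xylose and 0 lower, PAU24 from 9.63, 9.45 and 9.65 to 13.38, 13.69 and 13.64 (3.99 ± 0.18, adjusted p = 1.0e-10). The family was set apart after its values had been seen, and its members are so alike that their probe sets may read each other. Ergosterol synthesis, for which oxygen is needed, had 20 of 28 genes without a call, with ERG20 (-2.45) and ERG13 (-2.17) lower and ERG5 (1.30) higher. In lipid synthesis the elongase genes ELO2 (-6.02) and ELO3 (-4.30) were lower and INO1 (inositol synthesis, 3.39) was higher, while the fatty acid synthase gene FAS1 (0.04) was not called.

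Smaller groups gave these counts. Peroxide defence and thiol redox genes were higher in 20 of 35 cases and lower in 5, with the peroxiredoxin gene TSA2 (5.47) and the sulfiredoxin gene SRX1 (4.57) higher and TRX1 (-1.32) and GSH2 (-1.62) lower. Of 12 aldehyde reductase genes 6 were higher, OYE3 from 6.49, 6.34 and 5.87 to 12.50, 12.40 and 12.41, and ARI1 was lower (-4.12). Iron genes were higher in 12 of 24 cases, including TIS11 (3.22) and FIT2 (3.15), with FTR1 lower (-1.76). Cell wall genes were about evenly split with 12 of 34 higher, among them the yapsins YPS5 (5.41) and YPS6 (3.65), and 9 lower, among them the yapsin MKC7 (-6.97) and the transglycosylase UTR2 (-4.31). Multidrug resistance genes were near the background in the upward direction, with 5 of 18 higher (27.8%), and RSB1 rose by 7.31. Biotin genes were lower in 3 of 5 cases. Of 16 thiamine genes 5 were higher and 2 lower.

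Pairs of genes with like enzymatic or transport roles, chosen with earlier results known, were compared by their calls. Of 49 pairs measured, 14 were called in opposite directions, nearly the same number, 13, in the same direction, 19 for 1 member only and 3 for neither, beside 27.8% of all probe sets higher and 27.2% lower. The 14 pairs covered hexose transport (HXT5 up, HXT1 down), hexose phosphorylation (HXK1, HXK2), pyruvate kinase (PYK2, CDC19), pyruvate decarboxylase (PDC6, PDC1), 4 steps of the pentose phosphate pathway (SOL4, GND2, TKL2 and NQM1 up with SOL3, GND1, TKL1 and TAL1 down), phosphoglucomutase (PGM2, PGM1), aldehyde dehydrogenase (ALD4, ALD5), ADP/ATP exchange (PET9, AAC3), Hsp70 (SSA3, SSA2), glutamate dehydrogenase (GDH3, GDH1) and branched-chain transamination (BAT2, BAT1). The 3 pairs without a call were TDH1 with TDH3, ADH2 with ADH1, and IDP2 with IDP1. Levels of different probe sets are not on 1 scale, so which member of a pair is the more abundant was not read from the arrays.

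**Figure D4:**
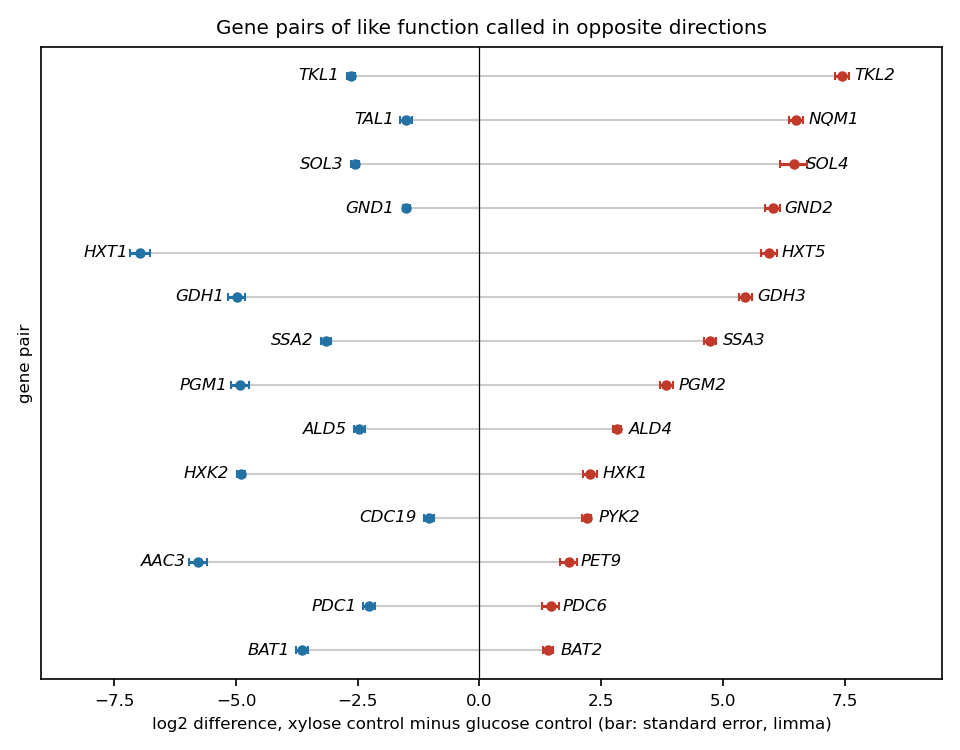
Log2 difference (x axis, xylose control minus glucose control) with its standard error from limma for the 14 pairs called in opposite directions, 1 pair per row, with the higher member in red and the lower in blue. The span is widest for HXT5 and HXT1 (5.95 and -6.97) and narrowest for CDC19 and PYK2 (-1.04 and 2.20).

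The same phase comparison in the pulsed arrays, which share no array with the controls, called 1139 probe sets (20.8%) higher and 1257 (22.9%) lower in xylose, 43.7% in all. Of the 1524 probe sets higher without a pulse, 834 were higher with it too (54.7% of the control list and 73.2% of the pulse list), and 27 were lower. Of the 1491 lower ones, 916 were lower again (61.4% and 72.9%) and 49 were higher. The median difference of the higher probe sets was 1.89 without and 1.12 with the pulse, and that of the lower ones -2.10 and -1.28. Both sets were picked by their difference between the controls, which by itself favours smaller medians in other arrays. Over 5489 probe sets the differences correlated at r = 0.76, as a description across probe sets of the same arrays.

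The difference between phases itself changed with the pulse for 2134 probe sets (38.9%), upwards for 19% and downwards for 19.9%, by a contrast of its own in limma. The tested change was opposite in sign to the control difference for 733 of the 1524 higher probe sets and 725 of the 1491 lower ones. These counts include differences that reversed with the pulse, not only those that became smaller. The control values that picked these probe sets also enter the change, which favours such counts. Ribosomal proteins had a median of -3.16 without and -1.45 with the pulse, and 104 of 127 passed the test of the change, all upwards. Stress response effectors went from 4.90 to 1.89 (27 of 30 passed downwards and 2 upwards). Respiratory genes had a median of 2.91 without and 2.45 with the pulse, and 37 of 42 were higher in the pulsed xylose arrays, while 16 of the 42 passed the test of the change downwards and 3 upwards. HXT15 (11.13 and 9.96) and DAK2 (11.44 and 11.11) were nearly as far apart with the pulse. RKI1 went from -6.05 to -1.67, TKL1 from -2.64 to -0.08 and GDH1 from -4.99 to 0.03. CYC1, uncalled without the pulse, differed by 7.61 with it (change 6.34, adjusted p = 3.0e-06). Ergosterol synthesis had a median of -0.01 (up to 0.02 with a glucose control array left out) without and 1.11 with the pulse, and 15 of its 28 genes were higher in pulsed xylose arrays.

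**Figure D5:**
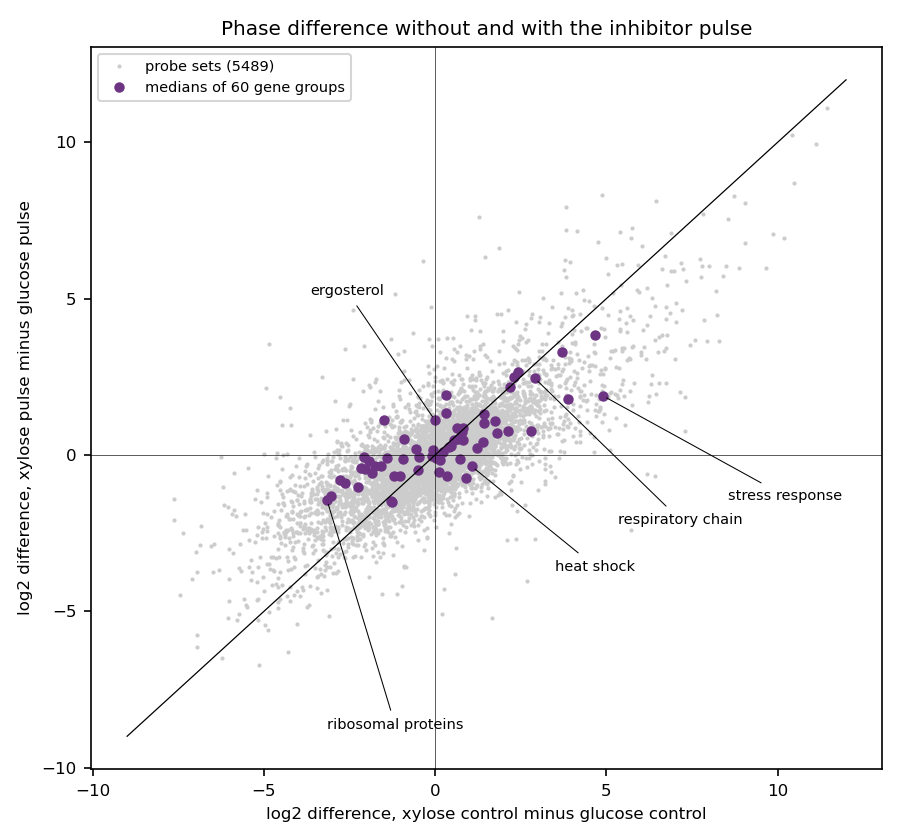
Log2 difference between xylose pulse and glucose pulse (y axis) against that between xylose control and glucose control (x axis) for 5489 probe sets (grey) and the medians of 60 gene groups (purple), with the line of equal difference in black. Ribosomal proteins (-3.16 and -1.45) and stress response effectors (4.90 and 1.89) lie nearer to 0 with the pulse, and the respiratory chain (2.91 and 2.45) lies close to the line.

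Markers of the labelled cell type were present. All 4 MAT alpha markers were bright in glucose and lower in xylose, with the pheromone gene MF(ALPHA)1 at 13.53, 13.27 and 13.25 in glucose and 9.86, 9.95 and 9.86 in xylose (-3.46 ± 0.11, adjusted p = 2.2e-12) and the receptor gene STE3 going from 12.35 ± 0.13 to 8.20 ± 0.07 (SD, n = 3). Of 5 haploid cell markers, FUS3 (-2.29), GPA1 (-1.94) and STE4 (-1.21), genes of the pheromone response, were lower, and STE18 (0.52) and RME1 (0.60) were not called. All arrays hold RNA of 1 MAT alpha strain, and less RNA in every cell cannot be told apart from less RNA in a part of the cells. The 7 MAT a markers had means between 2.57 and 8.03 over both phases, and STE6 (1.97) and MFA1 (1.16) were higher in xylose. Of 43 genes of meiosis and spore formation 27 were higher (median 1.39). Their levels were low, with medians of 4.02 in glucose and 5.57 in xylose, so the sizes of these differences are not exact. Among 10 defining markers of meiotic cells, with median levels of 4.59 in glucose and 5.70 in xylose, 7 were higher. NDT80 was higher by 3.22 and IME1 by 1.98, while SPO11 (-0.41) and SPO13 (-0.11) were not called. The strain is a haploid MAT alpha strain, as given above, and the presence of meiotic cells was not tested.

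The place of the genes on the chromosomes was not used to choose them. Of 235 measured genes among the 10 outermost protein-coding genes of each chromosome arm, 90 (38.3%) were higher and 37 (15.7%) lower, beside 27.8% and 27.0% of 5441 genes placed. The outermost genes were dimmer, with a median level of 8.01 in glucose and 8.68 in xylose, beside 9.71 and 9.75 for all placed. The part of this dimness in the counts was not tested. Among genes 11 to 20 from the end, 32.4% of 287 were higher and 25.8% lower, and among genes 21 to 40 22.9% of 603 and 30.7%. The outermost genes include HXT13, HXT15, HXT17, the MAL and IMA genes named above and 6 of the seripauperins called higher. They also include PAU8, PAU14, IMA5 and COS2, which were not called, and COS9, which was lower (-1.56), named after their values had been seen. Many of the outermost genes belong to families with shared sequence. The order of genes came from the RefSeq annotation of the yeast genome, the build of the array table not being named. These counts are a description and were not tested.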

How the data were processed

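The RNA of 12 samples, 3 per group, was hybridised to Affymetrix Yeast Genome 2.0 arrays. The authors corrected the background, quantile-normalized and summarized the probes by RMA (robust multi-array average) in R, and the deposited values are log2 expression per probe set. The values ran from 1.153 to 14.452. No counts exist for arrays, so the number of arrays limits the precision. Detection calls were not used here, so sizes of differences against dim values are not exact.

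Probe sets were named from the platform annotation, and 5489 of 5705 had 1 gene, 216 none. Of the symbols, 12 were updated through RefSeq. Where a gene had several probe sets, the one with the highest mean over 12 arrays stood for it in gene groups. A model of 4 group means was fitted over all 12 arrays with limma (version 3.58.1, under R 4.3.3). The residual degrees of freedom were 8 and the prior gave 4.53 more. The contrasts were xylose control minus glucose control, xylose pulse minus glucose pulse, and the difference between these. All tests were two-sided and p-values were adjusted by Benjamini-Hochberg over 5489 probe sets. Calls needed an adjusted p under 0.01 and a log2 difference beyond 1, the thresholds of the study's methods. The script was tested on simulated data. Replicates are described as biological, but the labels do not say which cultures they came from, so p-values measure only the spread between these arrays.

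Genes named in the text were drawn from those eligible under a rule, not all of which are named. Eligible were the 10 largest differences each way with groups apart, all regulators and markers, and both members of each pair. From each gene group came up to 6 members by adjusted p, up to 3 against its direction and up to 3 uncalled members of highest mean. Also eligible were the 6 largest changes with the pulse each way among probe sets called between the controls. Genes outside the rule are said to be chosen after their values were seen. Gene groups, pairs and this comparison were chosen with earlier results of these data known. Groups were described by counts and medians. Alternatives were the 6 control arrays alone, a replicate block, all probe sets, a filter on dim ones, other scalings, moderated variance with a trend, a test against 2-fold, an adjusted p of 0.05, probe set means and leaving out each array. Promoter and protein sequences were not used here. Tables were made with Python 3.11.15, pandas 2.3.3, numpy 2.4.6 and matplotlib 3.10.9.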

Additional observations from a re-analysis of the deposited data

Results flagged for a closer look

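The phase difference changed with the inhibitor pulse for 2134 of 5489 probe sets by the test of the change itself. Only those also called between the controls were ranked, so a gene such as CYC1, uncalled there, was left out. Among the ranked ones, the 6 largest changes upwards (phase difference with the pulse minus that without it, log2) were in HXT4 (8.42), DBP2 (7.07), MAE1 (7.02), ATF2 (6.37), SAM3 (6.32) and NSR1 (6.24). Each of these 6 was lower in xylose without the pulse. HXT4, a glucose transporter, differed between the phases by -4.86 without and 3.56 with the pulse. The RNA helicase gene DBP2 differed by -4.94 and 2.13, the malic enzyme gene MAE1 by -2.39 and 4.63, the alcohol acetyltransferase gene ATF2 by -4.53 and 1.84 and the S-adenosylmethionine permease gene SAM3 by -1.17 and 5.14. NSR1 kept its direction, with -7.64 and -1.40. The 6 largest changes downwards among the ranked probe sets were in CIS1 (-8.10), YOL131W (-7.09), LSO1 (-6.86), OYE3 (-6.80), ARO9 (-6.70) and RSB1 (-6.55). All 6 were higher in xylose without the pulse. The old yellow enzyme gene OYE3 differed by 6.20 without and -0.60 with the pulse, and the aromatic aminotransferase gene ARO9 by 2.67 and -4.03. RSB1 kept its direction, with 7.31 and 0.76. Groups of 3 arrays were not searched for single arrays far from the others.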

How the results depend on the processing

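No count of calls moved by more than 1.5 times and no call reversed under the alternatives run. Against 1524 higher and 1491 lower probe sets, the counts were 1098 and 1068 with the dimmest probe sets (by mean over the control arrays) left out, 1158 and 1187 when the test was against 2-fold, and 1514 to 1535 and 1482 to 1493 without each array in turn. Same-numbered control arrays of the phases deviated together in part (correlations 0.419, 0.237 and 0.069, against -0.359 to 0.238 for unlike numbers). So did pulsed arrays (0.599, 0.201 and 0.395, against -0.563 to 0.412 for unlike numbers). The labels name no shared culture or batch. With the replicate block the counts were 1524 and 1491 for controls and 1140 and 1257, instead of 1139 and 1257, for pulsed arrays. Within a phase, control and pulse arrays of 1 number deviated together in part (0.145 to 0.569, against -0.479 to 0.328 for unlike numbers). A replicate block within each phase, added after the data had been seen, gave 2140 changes with the pulse instead of 2134. Of the values of named genes under alternatives, 10249 of 10364 stayed on their side of the threshold, 77 lost the call and 38 gained it. Outside the test against 2-fold, the calls lost were among CDC19, GPM1, HIS4, HSP60, MEP1, MFA1, HOP1, ATG10, LSO1, CNE1, MET12, MVD1, PHO4, PHO5 and ROT1. The medians of 8 gene groups changed sign, among them hexose transporters (2.29 to -3.95) and amino acid permeases (0.30 to -0.32) with dim probe sets left out. The cause was not tested.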
